A study of Arabidopsis thaliana with 6 samples.

Results

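The miR167 family was described from 20 distinct small RNA sequences, out of 18124 listed over the 6 libraries of the series. A sequence was counted as miR167 when it matched, over its full length and without mismatch, the sense strand of the MIR167a, MIR167b, MIR167c or MIR167d precursor of Arabidopsis thaliana. The study sequenced small RNAs from leaves of 3 rdr1 mutant samples and 3 wild-type (WT) samples, to compare small RNA levels between the genotypes. RDR1 encodes an RNA polymerase that uses RNA as its template. Both genotypes had no treatment and were grown with 16 h of daylight at 22 °C. The labels give neither the rdr1 allele, nor plant age, nor whether replicates were separate plants. The p-values below therefore reflect variation among these samples, and it may be technical. Those from limma also draw on the spread of the other sequences or loci. Leaf samples hold many cell types, and fewer cells of a type cannot be told apart from less RNA per cell.

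In plants, a microRNA is cut from both arms of a hairpin precursor by DICER-LIKE1, giving a duplex of a 5p and a 3p strand. An ARGONAUTE protein, usually AGO1 for strands with a 5′ U, keeps a strand and uses it to pair with messenger RNAs. miR167 pairs with the mRNAs of ARF6 and ARF8, auxin response factors that act in flower maturation and adventitious rooting, and with that of IAR3, an enzyme that releases auxin from its alanine conjugate.

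The mature strands are shown first because the listed sequences of the family differ mainly at their 3′ ends and between arms. Sequences are written 5′ to 3′ with T for U, as the files list them, and capitals mark the seed, bases 2 to 8. Listed sequences are from the deposited table, and the miR167c strands are from the RefSeq genome (TAIR10.1) at the positions of its annotation.
miR167a-5p/miR167b: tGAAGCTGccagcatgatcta
miR167d: tGAAGCTGccagcatgatctgg
miR167c-5p: tAAGCTGCcagcatgatcttg
miR167a-3p: gATCATGTtcgcagtttcacc
miR167d 3p 21-nt: aGGTCATCctgcagcttcagt
miR167b 3p 23-nt: gGTCATGCtctgacagcctcact
miR167c-3p: tAGGTCATgctggtagtttcacc

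The 21-nt miR167a-5p is identical to the annotated miR167b, so its value cannot be divided between MIR167a and MIR167b. Against it, with positions counted from 1 at the 5′ end of miR167a-5p, miR167d carried the substitution A21G and was 22 nt long. Neither miR167c-5p nor miR167c-3p was listed, and 0 listed sequences matched MIR167c. When miR167c-5p was aligned from base 2 of miR167a-5p, it differed by G2T and A21T. Every listed sequence reached at least 20.07 in a library, on the deposited scale of reads per 8000000 of the library total. That lowest peak is called the listing limit here, although the rule for listing is not given in the sources used. MIR167c products that are not listed were not analysed here.

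The precursors lie in the TAIR10.1 build as follows, each annotated as a microRNA primary transcript. MIR167a (AT3G22886) is at chr3:8108072-8108209 on the plus strand, with miR167a-5p at chr3:8108090-8108110 and miR167a-3p at chr3:8108172-8108192. MIR167b (AT3G63375) is at chr3:23406168-23406276 on the plus strand, with miR167b at chr3:23406177-23406197 and its 23-nt 3p sequence at chr3:23406247-23406269. MIR167c (AT3G04765) is at chr3:1306622-1306781 on the minus strand. MIR167d (AT1G31173) is at chr1:11137539-11137915 on the plus strand, with miR167d at chr1:11137556-11137577 and its most abundant 3p sequence at chr1:11137879-11137899. The hairpins of MIR167a and MIR167b, from RefSeq, are printed because they give the same 5p strand and different 3p strands. Capitals mark the most abundant listed sequence of each arm.
MIR167a: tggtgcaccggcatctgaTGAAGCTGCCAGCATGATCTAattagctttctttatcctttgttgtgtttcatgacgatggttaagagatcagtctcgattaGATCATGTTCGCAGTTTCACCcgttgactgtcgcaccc
MIR167b: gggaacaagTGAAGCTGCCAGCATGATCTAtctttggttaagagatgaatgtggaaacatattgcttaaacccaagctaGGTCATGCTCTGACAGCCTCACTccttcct

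MIR167d is longest at 377 nt, against 160 nt for MIR167c, 138 nt for MIR167a and 109 nt for MIR167b. In the predicted fold of MIR167a, MIR167b and MIR167d, the most abundant 5p and 3p sequences formed a duplex with 3′ overhangs of 2 nt at both ends. A 2-nt 3′ overhang is the known form of a DICER-LIKE product. The duplex held 18 base pairs in MIR167a, 17 in MIR167b and 18 in MIR167d.

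The libraries had totals of 6377499, 4668411 and 6601783 reads in rdr1 and 5499464, 8988961 and 9955668 in WT, recovered from the step between the deposited values. miR167 took 106396, 98937 and 89792 of these reads in rdr1 and 45280, 115975 and 211161 in WT. WT replicate 1 stood apart, with 35.3% of its summed listed value in sequences of 28 to 34 nt, against 4.87% to 26.2% in the other libraries. It also had the lowest share in annotated miRNA sequences, 14.4%, against 22.6% to 34.9% elsewhere. Results whose direction changes without it are given both ways. Small RNAs hold no mRNA markers, so the leaf label was read from sequences matching the chloroplast genome, which held 14.7% to 18.8% of the summed value in rdr1 and 16.6% to 19.5% in WT. Of 5 miRNA loci listed as pollen-enriched, another organ, 4 had 0 listed sequences and MIR158b had 5, of which 4 also match elsewhere. The RDR1 gene itself had 0 listed small RNAs in either genotype, so these data hold no check of the mutation.

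Of the 20 miR167 sequences, 11 came from the 5p arm and 9 from the 3p arm, and 0 were antisense to a precursor or ran over its edge. All 20 were above 0 in all 6 libraries. As means over the 6 libraries, the family summed to 125097 on the deposited scale, with 104912, or 83.9%, on the 5p arm and 20184, or 16.1%, on the 3p arm. It had the highest listed sum of 61 miRNA families, followed by miR158 at 119138 and miR161 at 51691. The order of miR167 and miR158 was not the same in every library: miR158 held more of the miRNA value in rdr1 replicate 3, 23.8% against 19.5% for miR167, and in WT replicate 2, 25.9% against 18.5%. The family sum was 133464, 169543 and 108809 in rdr1 and 65868, 103215 and 169681 in WT, so the rdr1 values lay inside the WT range.

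**Figure D1:**
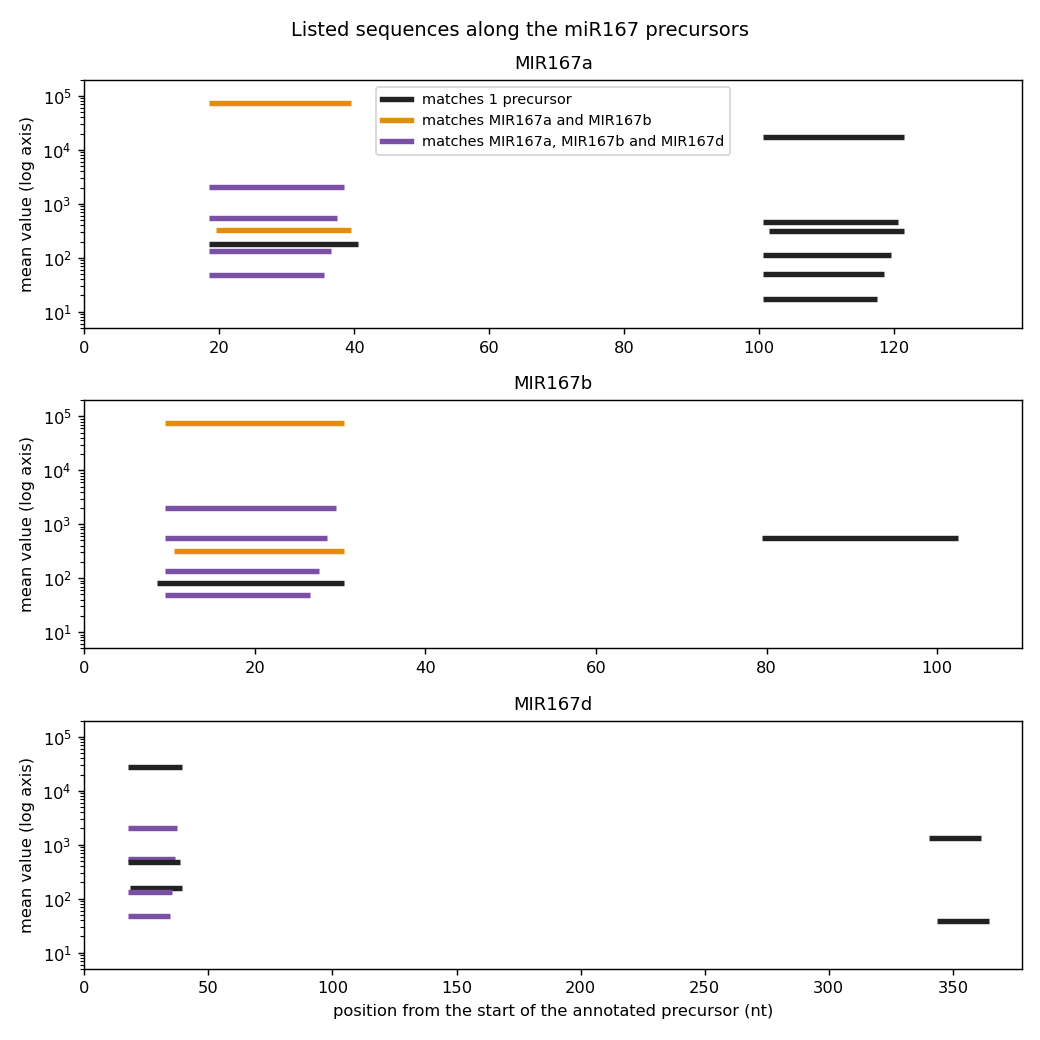
Mean value over the 6 libraries (log axis) of the listed miR167 sequences against position along the MIR167a, MIR167b and MIR167d precursors in nt. Each bar is a sequence from its first to its last base, and the bars form separate 5p and 3p groups in each hairpin with nothing listed in the loop.

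The most abundant sequence was the guide strand shared by MIR167a and MIR167b. The 21-nt miR167a-5p/miR167b reached 79419, 102560.0 and 62848 in rdr1, against 34809, 58439.7 and 105121 in WT. All 3 rdr1 libraries lay between the lowest and the highest WT library, and WT replicate 1 was the lowest of the 6. Its mean was 81609 ± 19946 in rdr1 and 66123 ± 35780 in WT (SD, n = 3 each).

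miR167d, the 22-nt strand that only MIR167d can give, came next. It reached 26579.7, 39548 and 23270.1 in rdr1, against 18229, 21758 and 32997 in WT. Its mean was 29799 ± 8603 in rdr1 and 24328 ± 7712 in WT (SD, n = 3 each), and the groups overlapped. The 21-nt miR167a-5p/miR167b was 2.99, 2.59 and 2.70 times as abundant as miR167d in rdr1, and 1.91, 2.69 and 3.19 times in WT. The ratio was thus above 1 in each library, and its lowest value was in WT replicate 1.

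On the 3p arm, the annotated 3p strand of MIR167a was the main product. miR167a-3p reached 19675, 19169 and 16678 in rdr1, against 9515, 16344 and 22470.0 in WT, with means of 18507 ± 1604 in rdr1 and 16110 ± 6481 in WT (SD, n = 3 each). The WT libraries spread on both sides of the rdr1 libraries. The 3p sequences of MIR167a together made up 89.3% to 91.9% of the 3p value in rdr1 and 88.0% to 91.3% in WT. Because MIR167a and MIR167b share nearly all of their 5p value, their products can be told apart mainly on the 3p arm, and there the MIR167a sum was 35.4, 73.0 and 20.6 times that of MIR167b in rdr1 and 16.7, 29.5 and 51.8 times in WT. That ratio compares strands that differ in sequence, so it is not a ratio of precursor levels.

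The 3p strand of MIR167d has no name in the annotation used here and was listed at lower values. Its 21-nt form reached 1199, 1599 and 1232 in rdr1, against 748, 1382 and 1730.1 in WT. miR167d was 22.2, 24.7 and 18.9 times as abundant as this partner in rdr1, and 24.4, 15.7 and 19.1 times in WT. The corresponding ratio of miR167a-5p/miR167b to miR167a-3p was lower in every library, at 4.04, 5.35 and 3.77 in rdr1 and 3.66, 3.58 and 4.68 in WT, with the part of the 5p value that comes from MIR167b included.

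The 3p strand of MIR167b, at 23 nt the longest listed miR167 sequence, also has no name in that annotation. It reached 588, 278 and 849 in rdr1, against 596, 588 and 457 in WT, with means of 572 ± 286 in rdr1 and 547 ± 78.1 in WT (SD, n = 3 each). It did not follow the other sequences across libraries. WT replicate 1 was the lowest library for 18 of the 20 sequences, whereas the 23-nt MIR167b sequence was lowest in rdr1 replicate 2 and highest in rdr1 replicate 3. The other exception was a 21-nt MIR167d 3p sequence that starts 3 bases further in, lowest in rdr1 replicate 3. As a share of all miR167, the 23-nt sequence held 0.441%, 0.164% and 0.781% in rdr1 and 0.905%, 0.570% and 0.269% in WT. These shares rest on 162 to 701 reads a library in rdr1 and 410 or more in WT, and the 95% Wilson intervals of rdr1 replicates 2 and 3, 0.140% to 0.191% and 0.725% to 0.840%, are apart. All intervals here cover counting error only.

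**Figure D2:**
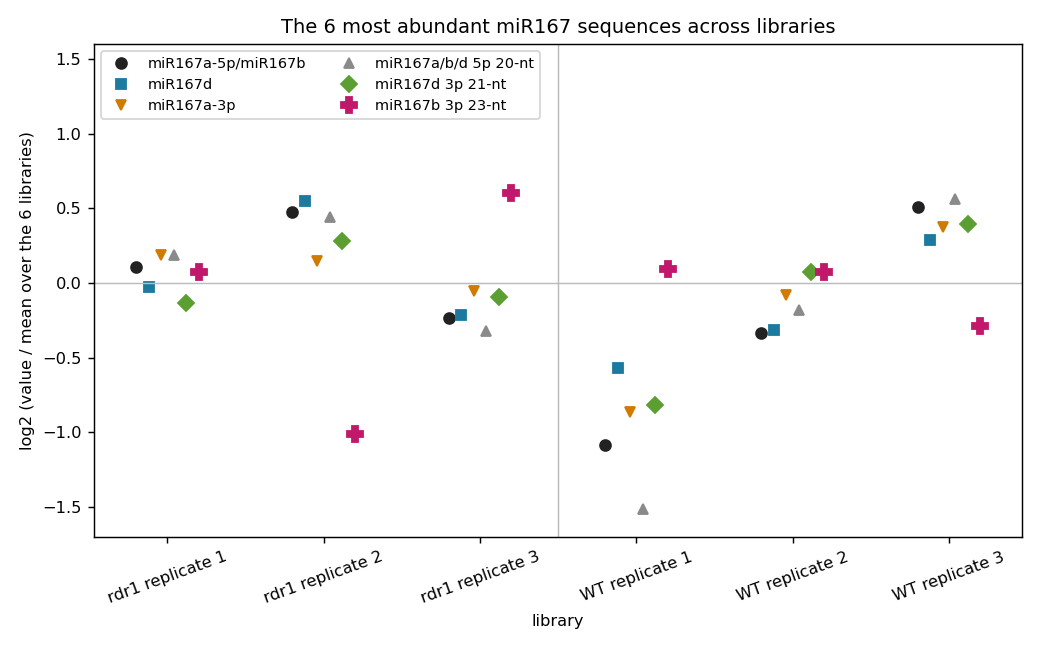
log2 of each library's value over the mean of the 6 libraries, for the 6 most abundant miR167 sequences, with the 3 rdr1 libraries left of the 3 WT libraries. In WT replicate 1 all but the 23-nt MIR167b sequence lie below 0, and in rdr1 replicate 2 only that sequence does.

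The ends of the 5p strand were uneven in how much they varied. Sequences that begin at the annotated 5′ end held 99.4%, 99.5% and 99.5% of the 5p value in rdr1 and 99.5%, 99.4% and 99.5% in WT. The 3 sequences with another start averaged 558 in sum, and they shift the seed: 8 of the 11 5p sequences have the seed GAAGCTG with a summed mean of 104354, 2 have AAGCTGC with 478, and 1 has TGAAGCT with 80.0. The seed AAGCTGC is also the seed of the unlisted miR167c-5p. Both sequences that carry it here match MIR167a and MIR167b, or MIR167d, and not MIR167c.

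At the 3′ end of the 5p strand, lengths from 17 to 22 nt were listed. The 20-nt form, which MIR167a, MIR167b and MIR167d share, reached 2316, 2764 and 1629.9 in rdr1, against 714, 1799 and 3006 in WT. A 22-nt form that matches MIR167a alone reached 193, 284 and 120.0 in rdr1 and 81.5, 105 and 279 in WT. A 22-nt form that starts 1 base early and matches MIR167b alone reached 87.8, 120.0 and 60.6 in rdr1 and 39.3, 67.6 and 104 in WT. These are the only locus-specific 5p sequences of MIR167a and MIR167b, so nearly all of their 5p value was shared. They averaged 177 for MIR167a and 80.0 for MIR167b over the 6 libraries, a far smaller ratio than on the 3p arm. These forms differ from each other at both ends, so their ratio is not a ratio of precursor levels either. Of miR167d, the form shortened by 1 base held 1.76%, 1.66% and 1.73% of the 21- and 22-nt sequences in rdr1 and 1.42%, 1.84% and 1.93% in WT. The forms of 17 to 19 nt held 0.967%, 0.507% and 0.579% of the 5p value in rdr1 and 0.328%, 1.02% and 0.705% in WT, lowest in WT replicate 1. The 3p arm of MIR167a was mostly its 21-nt form, which held 94.3% to 95.3% of that arm's value in rdr1 and 94.2% to 95.5% in WT.

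**Figure D3:**
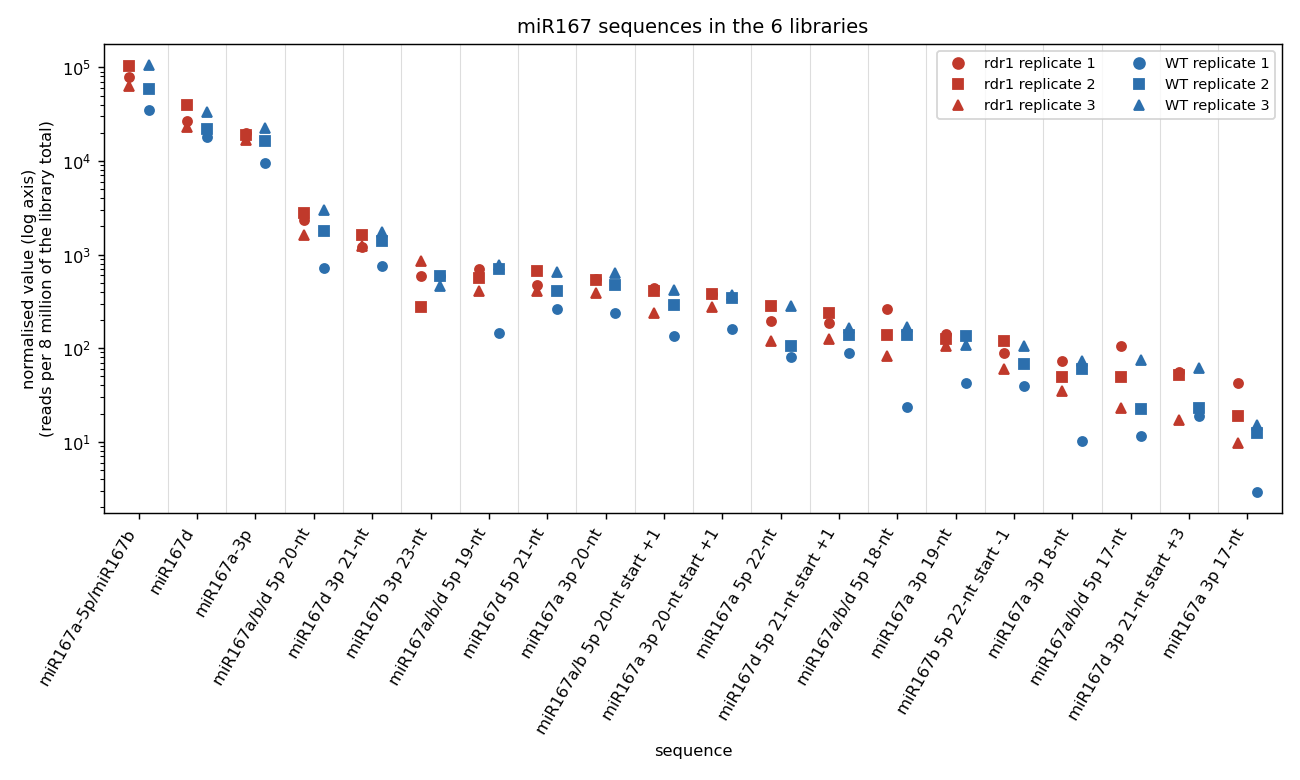
Values of the 20 miR167 sequences in each library (reads per 8000000 of the library total, log axis), with the rdr1 libraries left of the WT libraries for each sequence. The groups overlap for every sequence, and levels run from 105121 to 2.91.

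In length the family was compared with the summed value of all other miRNA sequences. Sequences of 22 nt held 22.3% ± 3.03 of the miR167 value, against 0.600% ± 0.0827 of the value of the 297 other sequences of annotated miRNA precursors (SD, n = 6 libraries). The range was 19.7% to 27.9% for miR167 and 0.478% to 0.715% for the others. An exact two-sided sign-flip test over the 6 libraries gave p = 0.03125, the smallest it can give, and 0.046875 after adjustment over the 3 length classes compared. Most of that 22-nt value was miR167d. A high 22-nt share was not particular to miR167: 6 families of lower level, each with a mean of at most 152, had a higher one, among them miR402, miR447 and miR163, each listed as 1 sequence of 22 nt, and miR5014 at 54.9%, against 21.8% of the mean miR167 sum. Sequences of 17 to 19 nt held 0.710% ± 0.262 for miR167 against 3.60% ± 1.06 for the others (SD, n = 6 libraries; exact p = 0.03125, adjusted 0.046875). Sequences of 21 nt held 74.0% ± 2.70 against 65.5% ± 4.07 (SD, n = 6 libraries). For them the p of the same exact test was above 0.05 before and after adjustment (exact p = 0.0625, adjusted 0.0625). The 3 classes were chosen after the values were seen, and the annotated 22-nt length of miR167d largely fixed the 22-nt result in advance. These p-values are therefore no further support for a difference. The smallest p, 0.03125, says only that the difference had the same sign in all 6 libraries of both genotypes, however widely they spread. Short forms of rarer miRNAs can also fall under the listing limit of the table.

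The level of each miR167 sequence was compared between rdr1 and WT with limma on log2 of the value plus 1, over the 18043 sequences whose mean over the 6 libraries reached 5. At a Benjamini-Hochberg adjusted p under 0.05, 0.216% of all sequences were called, 0.0166% as higher and 0.2% as lower in rdr1. Of the 20 miR167 sequences 0 were called in either direction. 0 of the 20 had an unadjusted p under 0.05, where 2.45% of all sequences did, and the lowest adjusted p among them was 0.753. edgeR and DESeq2 on the recovered reads also called 0 of the 20, where they called 0.432% and 0.787% of all sequences. The rdr1 and WT values did not overlap for 0 of the 20 sequences, against 5.29% of all sequences and 4.42% of those of annotated miRNA precursors.

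On the deposited scale 19 of the 20 values were higher in rdr1, with a median log2 fold change of 0.41, but the median over all sequences was 0.47, so the family sat close to the whole table. The log2 fold change was 0.42 (SE 1.08, limma adjusted p = 0.794) for miR167a-5p/miR167b, 0.30 (SE 0.91, adjusted p = 0.817) for miR167d and 0.28 (SE 0.85, adjusted p = 0.816) for miR167a-3p. Each of these SEs was larger than its fold change. They are limma's moderated SEs, which draw on all sequences of like level as well as on these libraries. In the fit of sums per locus, MIR167b, mostly the strand shared with MIR167a, had an SE of 0.48. In the fit of single sequences, the log2 fold change of the most abundant 3p sequence was 0.13 (SE 0.63, limma adjusted p = 0.875) for MIR167d and -0.07 (SE 0.61, adjusted p = 0.932) for MIR167b. The smallest p-values belonged to short forms: 0.81 (SE 0.66) for the 18-nt and 0.85 (SE 0.78) for the 17-nt 5p sequence, and 1.15 (SE 1.0003) for the 17-nt MIR167a 3p sequence, each with a limma adjusted p of 0.753. In those 3 short forms WT replicate 1 was the lowest library and rdr1 replicate 1, which had 35.2% of its summed value in sequences of 17 to 19 nt, was the highest, and the part of that in the values was not tested.

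The sign of the fold changes depended on scaling and on WT replicate 1. After median-of-ratios scaling, which brought the median over all sequences to 0.03, the fold change was -0.05 for miR167a-5p/miR167b, -0.17 for miR167d and -0.19 for miR167a-3p, and 8 of the 20 sequences were higher in rdr1. Without WT replicate 1, the median over the 20 was -0.01, beside 0.03 over all sequences, and again 8 were higher. The fold change without that library was -0.054 for miR167a-3p, -0.090 for the 20-nt 5p form, -0.22 for the 21-nt MIR167d 3p sequence and -0.071 for the 18-nt 5p form. For the 23-nt MIR167b 3p sequence the fold change was 0.38 without rdr1 replicate 2. No direction is therefore given for the family.

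**Figure D4:**
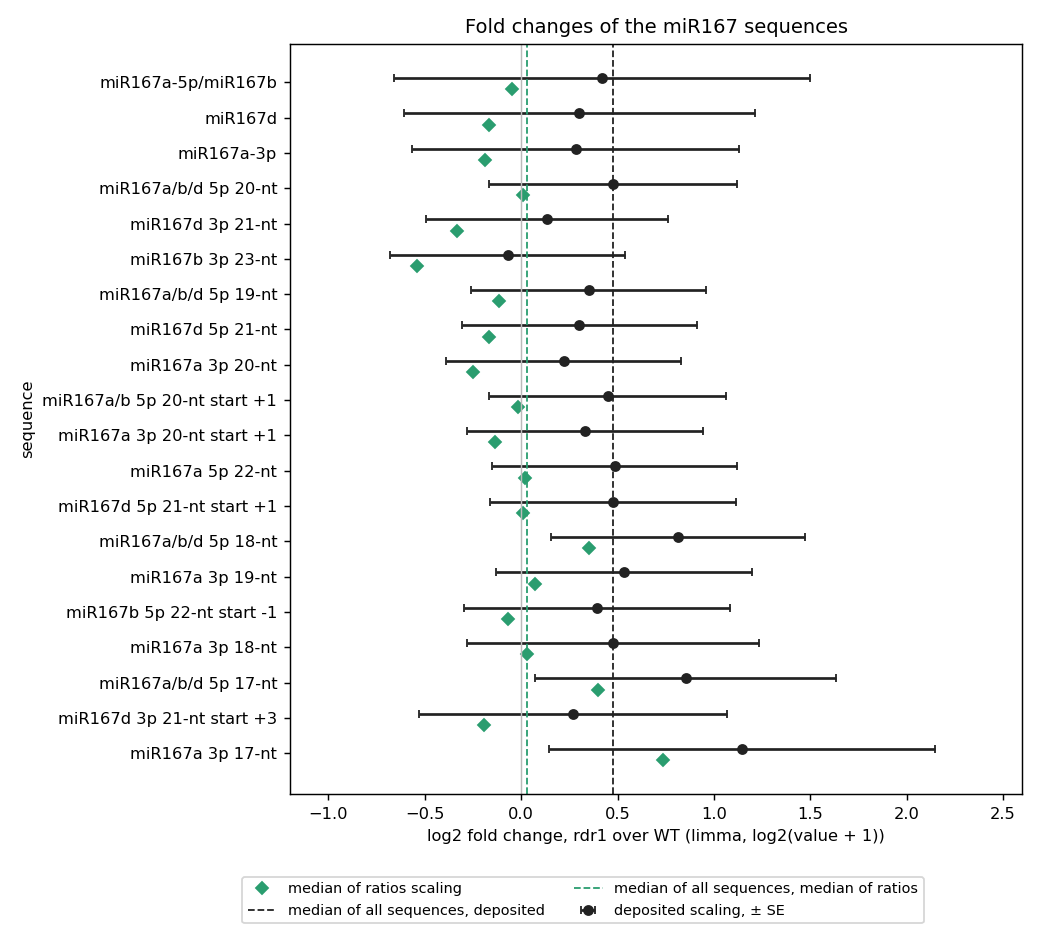
log2 fold change, rdr1 over WT, of the 20 miR167 sequences in the limma fit. Points are the deposited scale, with bars of ± limma's moderated SE, and diamonds are after median-of-ratios scaling. Dashed lines mark the median of all sequences on each scale, 0.47 and 0.03, and the points lie around them.

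The family was also summed by precursor, with a shared sequence divided equally between its matches. MIR167a had 61732 ± 11677 in rdr1 and 51200 ± 25304 in WT, MIR167b 42651 ± 9975 in rdr1 and 34661 ± 18422 in WT, and MIR167d 32889 ± 9196 in rdr1 and 27060 ± 8910 in WT (SD, n = 3 each). The log2 fold changes were 0.38 (SE 0.46, limma adjusted p = 0.636), 0.41 (SE 0.48, adjusted p = 0.636) and 0.30 (SE 0.44, adjusted p = 0.684). Over 1024 loci tested, 0.0977% were called and the median was 0.18. 0 of the 3 MIR167 loci were called. Under median-of-ratios scaling all 3 fold changes were negative, from -0.17 to -0.06, beside a median of -0.28 over all loci on that scale. They stayed positive with edgeR, from 0.25 to 0.32, and with DESeq2, from 0.22 to 0.28, beside medians over all loci of 0.08 and 0.07. The 20 sequences, in contrast, had medians of -0.0017 with edgeR and -0.12 with DESeq2. Both tools scaled the libraries anew on the locus sums, and the part of that in the difference was not tested. Without WT replicate 1 the value for MIR167a was -0.0012, beside a median of -0.12 over all loci. The MIR167b sum is mostly the equal split of the shared strand, not sequence of its own. With locus-specific sequences only, the log2 fold change was 0.29 for MIR167a, 0.021 for MIR167b and 0.29 for MIR167d. The median over all loci in that run was -0.13.

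Shares do not depend on the scale, and 5 were compared between genotypes: that of miR167 in the summed miRNA value and 4 within the family. The test was an exact permutation over the samples, two-sided, whose smallest possible p is 0.1 for 3 against 3. miR167 held 22.3%, 25.4% and 19.5% of the summed miRNA value in rdr1 and 22.7%, 18.5% and 22.5% in WT, with means of 22.4% ± 2.94 in rdr1 and 21.2% ± 2.40 in WT (SD, n = 3 each; exact permutation p = 0.7, adjusted over the 5 shares 0.875). Each library's value is known to within 0.184 percentage points from counting (95% Wilson), and the libraries differed by more than that. The 3p arm held 17.01%, 13.1% and 18.0% of miR167 in rdr1 and 17.2%, 18.8% and 15.3% in WT (means 16.0% ± 2.59 in rdr1 and 17.1% ± 1.74 in WT, SD, n = 3 each; exact permutation p = 0.6, adjusted 0.875).

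The 22-nt share of the 5p value was 24.3%, 27.1% and 26.3% in rdr1 and 33.6%, 26.2% and 23.2% in WT, with WT replicate 1 above all others (means 25.9% ± 1.47 in rdr1 and 27.7% ± 5.38 in WT, SD, n = 3 each; exact permutation p = 0.9, adjusted 0.9). Locus-specific sequences held 37.6%, 37.2% and 40.1% in rdr1 and 45.6%, 40.5% and 35.4% in WT (means 38.3% ± 1.54 in rdr1 and 40.5% ± 5.08 in WT, SD, n = 3 each; exact permutation p = 0.6, adjusted 0.875). miR167d is the largest part of both shares, and both were highest in WT replicate 1, where miR167d lay closer to its mean over the libraries than the 21-nt strand did. Without that library the difference, rdr1 minus WT, was 1.20 percentage points for the 22-nt share and 0.312 for the locus-specific share. The share of the annotated 5′ end differed by less than the spread between replicates (means 99.5% in both genotypes; exact permutation p = 0.7, adjusted 0.875).

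**Figure D5:**
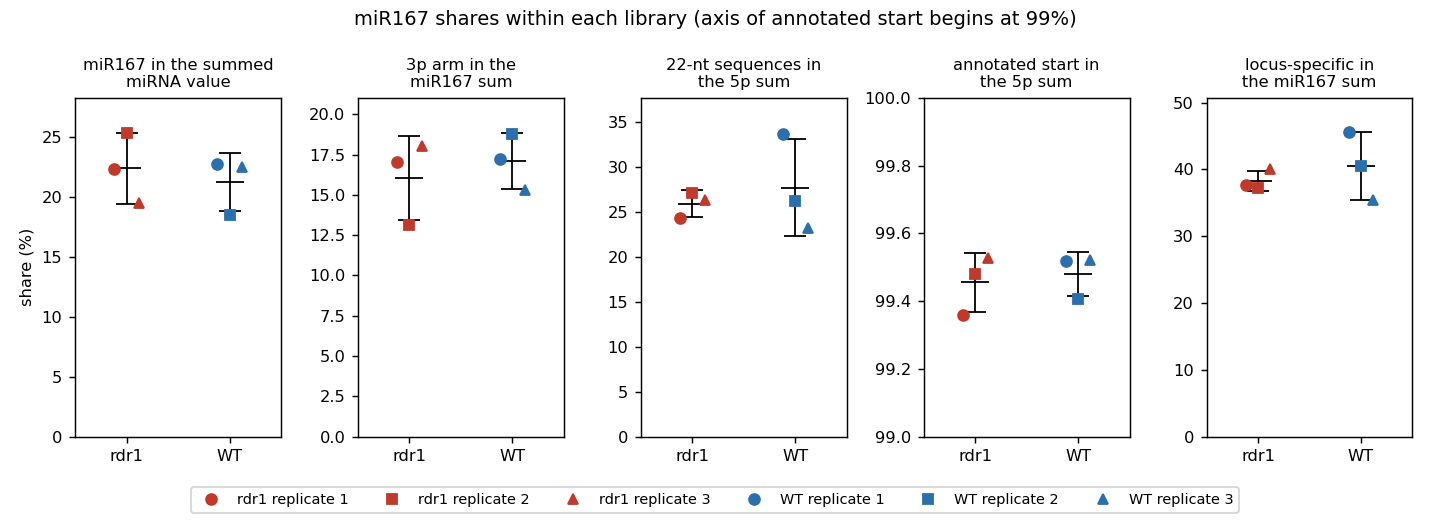
The 5 shares tested, in percent, with rdr1 left of WT in each panel; points are libraries, and horizontal lines with bars are the mean ± SD (n = 3 each). The genotypes overlap in all 5 panels, and WT replicate 1 is highest for the 22-nt and the locus-specific share.

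The miRNA families whose share of the miRNA value followed that of miR167 most closely over the 6 libraries, among 46 with a mean of at least 100, were miR847 (Pearson r = 0.904), miR400 (0.891), miR398 (0.874), miR402 (0.871) and miR396 (0.825). These are descriptions over 6 libraries whose shares add up to the same total, and miR402 rests on 1 sequence.

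For the target genes, the sites in the mRNA are shown with capitals where they match the complement of miR167a-5p, read from RefSeq and located in coding exons.
ARF6: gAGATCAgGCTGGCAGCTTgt
ARF8: TAGATCAgGCTGGCAGCTTgt
IAR3: gAtccgATaCTGGCAGCTTCA

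The ARF6 site (AT1G30330, chr1:10686478-10686498, minus strand) matches at 17 of 21 bases, the ARF8 site (AT5G37020, chr5:14633841-14633861, plus strand) at 18 and the IAR3 site (AT1G51760, chr1:19200652-19200672, plus strand) at 15. A 22-nt miRNA such as miR167d belongs to the length class known to start secondary small RNAs from its targets. 0 listed sequences matched ARF6, ARF8 or IAR3 on either strand, in rdr1 or WT, at the listing limit of 20.07. Target mRNA levels were not measured in this series.

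Other small RNA loci linked to auxin, chosen as a list, were measured in the same fit: MIR160, which targets further auxin response factors, MIR164, MIR390 with TAS3, which give the trans-acting siRNAs against ARF3 and ARF4, MIR393, which targets auxin receptors, and MIR847. Of 14 loci 12 were tested, all but TAS3b and TAS3c, and 0 passed in either direction by limma, against 0.0977% of all loci. 0 had an unadjusted p under 0.05, where 2.83% of all loci did. Their log2 fold changes ran from 0.21 to 0.45 with a median of 0.40, beside 0.18 over all loci. The 12 loci are not separate measurements, because a shared sequence was divided equally between its matches. MIR160a, MIR160b and MIR160c had the same values in every library, and so had MIR164a and MIR164b. After median-of-ratios scaling 0 of the 12 were higher in rdr1, with a median of -0.07, beside -0.28 over all loci on that scale, where 767 of 1024 loci were lower. With edgeR and with DESeq2 12 of the 12 were higher, with medians of 0.30 and 0.27, beside 0.08 and 0.07 over all loci. Without WT replicate 1, 7 of the 12 were higher and 5 lower by limma, with fold changes from -0.25 to 0.16. Their median was then 0.02, beside -0.12 over all loci, so no direction is given for this list.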

How the data were processed

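The deposited table, made by the authors, holds a normalised signal per distinct sequence, 1 column per library per the file headers. Within a library 100% of values are whole multiples of 1 step within 0.01 of a read, from which whole reads and library totals (8000000 divided by the step) were recovered; what the total counts is not given in the sources used here, nor are trimming, aligner and filters. 23.8% to 30.9% of each total is listed. Per the submitters' processing notes, the genome build was TAIR10. Total RNA was extracted with TRIzol, made into libraries with HD adapters and read as 50-nt single-end reads, per the labels' protocols.

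Sequences were matched exactly to TAIR10.1 (RefSeq). Because values were not raw counts, limma 3.58.1 (R 4.3.3, empirical Bayes with trend, two-sided) was fitted on log2(value + 1) with a minimum mean of 5, for sequences and for sums per locus, with Benjamini-Hochberg adjustment over all rows. Fold changes on that scale understate low values. edgeR 4.0.16 (quasi-likelihood, TMM) and DESeq2 1.42.0 on recovered reads were alternatives, as were pseudocounts of 0.5 and 20, no filter on low values, scaling by median of ratios or to equal listed totals, a minimum mean of 20, a replicate block, locus-specific sequences and leaving out each library. Shares were tested in scipy 1.17.1, hairpins folded with RNAfold 2.7.2, figures drawn with matplotlib 3.10.9. The fit was also run on simulated counts, with planted changes larger than any miR167 fold change and all libraries otherwise drawn around the same means. That run does not show how the fit performs on changes as small as those of miR167. Members, lists and tests were chosen with earlier results of these data known. Named are the precursors, their mature strands, the 5 most abundant members, the top locus-specific member of each arm and the 3 members with the smallest p.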

Additional observations from a re-analysis of the deposited data

How the results depend on the processing

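0 miR167 sequences and 0 MIR167 loci were called under any alternative run, including edgeR and DESeq2. Calls over all sequences, 39, became 24 with a pseudocount of 20, 15 with a mean of at least 20, 78 with edgeR, 142 with DESeq2 and 11 to 72 without a library. Calls over loci, 1, became 3 with no filter, 2 with locus-specific sequences only and 1 to 2 without a library. Under median-of-ratios scaling the log2 fold change turned to -0.050 for miR167a-5p/miR167b, -0.17 for miR167d, -0.19 for miR167a-3p, -0.33 for miR167d 3p 21-nt, -0.068 for miR167b 5p 22-nt, -0.093 for MIR167a, -0.056 for MIR167b and -0.17 for MIR167d. With edgeR it turned to -0.017 for miR167d, -0.078 for miR167a-3p and -0.17 for miR167d 3p 21-nt. With DESeq2 it turned to -0.098 for miR167a-5p/miR167b, -0.16 for miR167d, -0.21 for miR167a-3p, -0.076 for the 20-nt 5p form, -0.30 for miR167d 3p 21-nt, -0.094 for miR167a 5p 22-nt and -0.077 for miR167b 5p 22-nt. These methods scale the libraries otherwise, and beyond that the cause was not tested.

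Without each library in turn, the log2 fold change ranged from -0.054 to 0.57 for miR167a-3p, -0.090 to 0.95 for the 20-nt 5p form, -0.22 to 0.39 for miR167d 3p 21-nt, -0.43 to 0.38 for miR167b 3p 23-nt, -0.071 to 1.33 for the 18-nt 5p form and -0.0012 to 0.74 for MIR167a. The difference in share, in percentage points, ranged from -0.348 to 2.59 for miR167 in the miRNA sum, -2.02 to 0.430 for the 3p arm, -4.01 to 1.20 for 22 nt, -0.0637 to 0.0220 for the annotated start and -4.77 to 0.312 for locus-specific sequences. The lowest value of each of these log2 fold changes except that of miR167b 3p 23-nt was without WT replicate 1. The lowest value for the miRNA sum and the highest for the 3p arm were without rdr1 replicate 2.

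Same-numbered libraries deviated in opposite directions (r = -0.72, -0.30 and -0.53) and none correlated best with its own number. These are deviations from means of 3 libraries, so they cannot settle whether same-numbered libraries were handled together. The replicate block gave 7 calls over all sequences and 0 for miR167. The widest 95% Wilson half-interval of the 5 shares was 0.478 percentage points, which covers counting error only.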

Other observations

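The share of miR158, the next most abundant family, ran opposite to that of miR167 over the 6 libraries. miR158 held 20.4%, 16.9% and 23.8% of the summed miRNA value in rdr1 and 17.7%, 25.9% and 20.1% in WT, and Pearson r with the miR167 share was -0.96 over 6 libraries. Both families are large parts of the same total, so part of an opposite course is built into the shares, and the relation was noticed after the values were seen and was not tested.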
